A study of Mus musculus with 3 samples.

Results

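The genes described here are 9 genes of retinoid synthesis, transport, storage and breakdown: Aldh1a1, Aldh1a2, Aldh1a3, Rbp4, Lrat, Stra6, Cyp26a1, Cyp26b1 and Crabp1. They were taken by symbol from the 31053 genes listed in all 3 libraries, whatever their counts, and each symbol matched 1 gene. The study profiled sorted blood endothelial cells of mouse Peyer's patches, the lymphoid organs of the small intestine wall, by droplet single-cell RNA-seq. It compared 1 control library (control replicate 1, labelled WT, strain C57BL/6) with 2 libraries of EC-iCOUPOE mice, which carry CDH5(PAC)CreERT2 and COUP-TFIIOE/OE and overexpress COUP-TFII, encoded by Nr2f2, after tamoxifen. Cells came from animals of 6 to 10 weeks, isolated 14 to 19 days after tamoxifen, with both sexes processed together. The study describes its controls as littermates without the Cre transgene, and names WT mice beside such controls among those profiled. Whether the library labelled WT came from such littermates was not given. Differences of litter or genetic background therefore cannot be told apart from COUP-TFII overexpression. The day and the number of mice behind each library were not given. The Cdh5 promoter is active in lymphatic as well as blood endothelium, so the transgene is not restricted to blood vessels.

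Retinoids are vitamin A and its derivatives. Retinol travels in blood bound to retinol-binding protein 4 (Rbp4), enters cells through the receptor Stra6, is stored as esters made by Lrat, and is oxidised first to retinal and then, by the retinal dehydrogenases Aldh1a1, Aldh1a2 and Aldh1a3, to retinoic acid. Cyp26a1 and Cyp26b1 break retinoic acid down, and Crabp1 binds it in the cytosol. Stromal cells of the gut wall are known to make retinoic acid, which shapes lymphocyte homing to the intestine, and Cyp26a1 is a classical target gene of the retinoic acid receptors. The question put to the files was which fibroblast, glial or endothelial class held the mRNA of each of these steps, and how the levels in endothelium compared between EC-iCOUPOE and control.

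The libraries held 1441 to 6080 barcodes and 3548983 to 17417260 UMIs (unique molecular identifiers, counts of captured mRNA molecules), with medians of 2180 to 2884 UMIs per barcode. After filters on cells, 1237 to 5335 cells per library were analysed. Levels are UMIs of a gene summed over all cells of a class in 1 library, given as CPM, counts per 1000000 UMIs of that class, with the exact Poisson 95% interval, which covers counting error only. With 1 control library there was no test between conditions. A gene was called higher or lower when both EC-iCOUPOE libraries lay at least 2-fold above or at least 2-fold below the control library, among genes with at least 50 UMIs in the class in 1 library or more. Nr2f2 itself stood at 118 CPM in blood endothelium of the control library and at 1694 and 1166 CPM in the EC-iCOUPOE libraries, 14.4-fold and 9.92-fold higher. Cells were clustered, and clusters were named after marker lists ("X-like") or, where no list reached the naming score, after their leading genes.

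The libraries differed in which cells they held. Fibroblast-like cells numbered 2474 in the control library but 8 and 4 in the EC-iCOUPOE libraries, and glia-like cells numbered 202, 2 and 5. Lymphatic endothelial-like cells were absent from the control library and numbered 949 and 127 in the others. Stromal levels are therefore given for the control library only, where 7 of 7 fibroblast markers and 8 of 8 glial markers were detected in their own classes. Of the 8 blood endothelial markers, all 8 were detected in blood endothelium of each library. The same markers named these classes, so their detection is no check of the names or labels. Classes within blood endothelium were uneven too, and cells like high endothelial cells (HEC-like) numbered 389, 110 and 2.

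The promoters of Cyp26a1 and Cyp26b1 are printed because both genes were called higher over all EC-iCOUPOE blood endothelium. In no single endothelial class were both called higher. The sequences come from RefSeq on GRCm38 (the mm10 build of the files) and end where the annotated gene begins. Capitals mark TGAACT, the reverse complement of AGTTCA, a 6-base motif of retinoic acid receptor elements.
Cyp26a1, chr19:37697558-37697797, plus strand: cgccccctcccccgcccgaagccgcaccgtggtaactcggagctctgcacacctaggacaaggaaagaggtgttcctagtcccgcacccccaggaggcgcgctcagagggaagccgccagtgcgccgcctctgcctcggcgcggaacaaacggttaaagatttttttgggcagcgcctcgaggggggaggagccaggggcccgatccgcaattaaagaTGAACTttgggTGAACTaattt
Cyp26b1, chr6:84593909-84594060, minus strand: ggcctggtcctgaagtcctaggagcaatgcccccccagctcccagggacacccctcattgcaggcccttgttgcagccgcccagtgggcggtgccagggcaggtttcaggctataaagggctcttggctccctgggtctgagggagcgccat
The promoter table had entries for 8 of the 9 genes, with 13 windows of 250 bases before a start site, and none for Aldh1a3. The motif was searched on both strands in 4 forms, alone and as direct repeats with a spacer of 5 bases. The form AGGTCA was in 14.0% of all windows, the form AGTTCA in 11.8%, the form GGGTCA in 11.6% and the form GGTTCA in 8.85%. The repeat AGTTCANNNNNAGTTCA was in 7 of 32851 windows (0.0213%), and any pair of the 4 forms so spaced was in 29 (0.0883%). Of these 13 windows, 1 held such a repeat, that of Cyp26a1, with its copies 32 to 27 and 21 to 16 bases before the RefSeq start. The Cyp26b1 window held none of the 4 forms, and GGGTCA was found once each in a window of Aldh1a1 and of Rbp4. These are matches of letters only, which do not tell 1 receptor from another, and binding was not measured. The study gives TGACCC, the reverse complement of GGGTCA, as a COUP-TFII site. It also states that COUP-TFII binds direct repeats of its site at varying spacing.

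In the control library the 9 genes fell into a stromal and an endothelial set. Fibroblast-like cells held 98.2% of the library's Aldh1a2 UMIs, 98.2% of its Lrat UMIs, 97.6% of its Rbp4 UMIs, 93.2% of its Aldh1a3 UMIs and 82.7% of its Aldh1a1 UMIs. Blood endothelium held 99.0% of the Stra6 UMIs and 96.0% of the Cyp26b1 UMIs. Among the cells recovered, synthesis, carrier and storage genes were thus counted mainly in stroma, and the uptake receptor and a breakdown enzyme in vessels. Epithelial-like and lymphocyte-like cells numbered 4 and 17 in this library, so these shares are not those of the whole organ. With fibroblast, glial, mural and blood endothelial cells each summed, Aldh1a1 lay at least 2-fold above the other compartments in glia-like cells (595 against 134 CPM in fibroblast-like cells), Aldh1a2, Rbp4 and Lrat in fibroblast-like cells, and Stra6 and Cyp26b1 in blood endothelium, as did 21.5% of 10266 genes in any compartment. Aldh1a3, at 79.8 CPM in fibroblast-like and 86.5 CPM in glia-like cells, did not. Crabp1 was at 1 UMI in all 3 libraries together, in a glia-like cell, and Cyp26a1 was at 1 UMI in the control library.

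**Figure D1:**
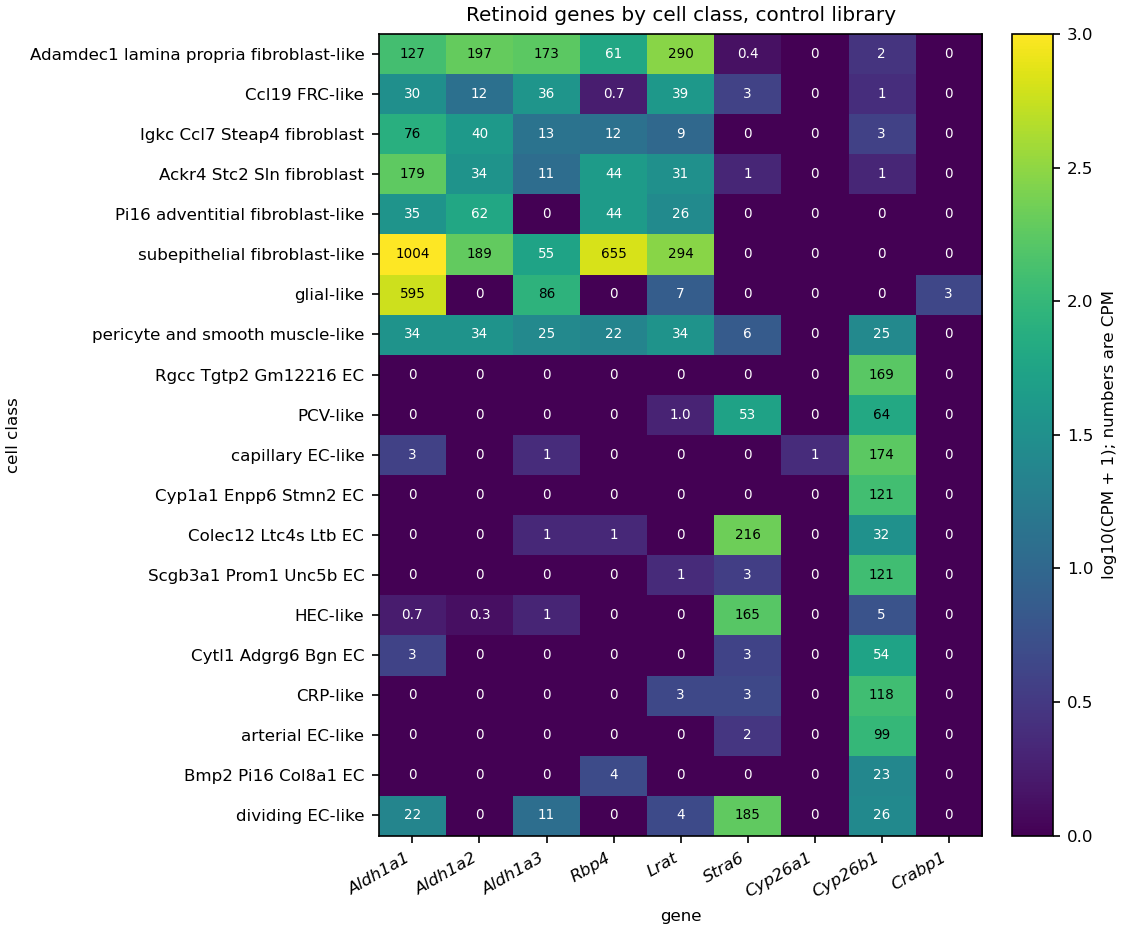
Levels of the 9 genes (columns) in cell classes of the control library with at least 20 cells (rows, with 1 fibroblast class not shown), as CPM, with the colour on a log10(CPM + 1) scale. Aldh1a1, Aldh1a2, Aldh1a3, Rbp4 and Lrat lie in the fibroblast and glial rows, with Aldh1a1 at 1004 CPM in subepithelial fibroblast-like cells, and Stra6 and Cyp26b1 lie in the endothelial rows.

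Aldh1a1 had its highest level in subepithelial fibroblast-like cells, the class led by Tspan13, Wif1 and Sox6, on chr19:20492715-20643465 in mm10. It stood there at 1004 CPM (880.4 to 1139), from 239 UMIs in 98 cells, and glia-like cells followed at 595 CPM (511 to 689). The step between these classes was 1.69-fold with a counting interval of 1.38 to 2.06, and glia-like cells lay 3.33-fold (2.68 to 4.14) above the next class. That next class was fibroblasts led by Ackr4, Stc2 and Sln, at 179 CPM (152 to 208), and Adamdec1 lamina propria fibroblast-like cells had 127 CPM (114 to 141). Ccl19 fibroblastic reticular cell-like (FRC-like) cells, the lymphoid stroma, had 30.1 CPM. Aldh1a1 was detected in 84.7% of subepithelial fibroblast-like cells and 41.1% of glia-like cells, at median depths of 2258.5 and 1382.5 UMIs, against 0.365% of blood endothelial cells at 2150.5 UMIs. Thinned to 1000 UMIs per cell, those shares were 66.3%, 34.7% and 0.203%.

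Aldh1a2 (chr9:71215789-71296243) and Aldh1a3 (chr7:66390890-66427517), the other retinal dehydrogenases, had another order. Aldh1a2 stood at 197 CPM (181 to 214) in Adamdec1 lamina propria fibroblast-like cells and at 189 CPM (138 to 253) in subepithelial fibroblast-like cells, which did not differ (1.04-fold, interval 0.768 to 1.45). The latter lay 3.07-fold above Pi16 adventitial fibroblast-like cells, at 61.5 CPM. Aldh1a2 was at 0 UMIs in glia-like cells, where 3 UMIs would have been 9.98 CPM. Aldh1a3 was highest in Adamdec1 lamina propria fibroblast-like cells at 173 CPM (158 to 189), 2.00-fold (1.35 to 3.096) above glia-like cells at 86.5 CPM (56.5 to 127). Glia-like cells thus had Aldh1a1 and Aldh1a3 but no detected Aldh1a2. The 7 fibroblast markers summed to 1484 CPM in glia-like cells, against 25015 CPM in Adamdec1 lamina propria fibroblast-like cells, and the part of free fibroblast RNA in the glial levels was not tested.

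Rbp4 (chr19:38116629-38125281), the plasma carrier of retinol, had the widest gap between its first and second class among the 5 stromal genes. Subepithelial fibroblast-like cells stood at 655 CPM (556 to 766), from 156 UMIs, which was 10.7-fold (8.53 to 13.3) above Adamdec1 lamina propria fibroblast-like cells at 61.4 CPM. Pi16 adventitial fibroblast-like and Ackr4-led cells both stood at 43.9 CPM and did not differ beyond counting error. FRC-like cells had 1 Rbp4 UMI in 352 cells, and glia-like cells had none. By the rule that a class holds a gene when it lies at least 2-fold above every other class, Rbp4 was held by subepithelial fibroblast-like cells and Aldh1a3 by Adamdec1 lamina propria fibroblast-like cells, so 2 of the 7 genes with at least 50 UMIs in a class were held by 1 class of the control library. Rbp4 was so held under all 7 alternatives tried, and Aldh1a3, which lay 2.00-fold above the next class, under 3 of them. Over all 7373 genes with at least 50 UMIs in a class of that library, 7.2% were held by 1 class, 1.15% by the subepithelial class and 0.339% by the Adamdec1 class. Where a class also had to hold the gene in at least 2 libraries, 4.34% of 8621 genes passed and none of the 9. Fibroblast and glial classes had 20 cells in the control library alone, so no gene could pass there and the rule says nothing about the 5 stromal genes.

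Lrat (chr3:82892579-82903973), which makes the storage esters, did not differ beyond counting error between subepithelial fibroblast-like cells at 294 CPM (229 to 371) and Adamdec1 lamina propria fibroblast-like cells at 290.2 CPM (270.5 to 311), a ratio of 1.01 (0.782 to 1.29). The Adamdec1 class lay 7.45-fold (5.64 to 10.03) above FRC-like cells, at 39.0 CPM. Within the Adamdec1 class Lrat differed between its 3 clusters. It stood at 182 CPM (158 to 208) in the cluster led by Mmp3 and Ereg, at 293 CPM (255 to 335) in that led by Adamdec1 and Col6a5, and at 440.4 CPM (397 to 488) in that led by Mmp10 and Sertm1, and these intervals did not overlap. Aldh1a3 stood at 128, 189 and 222 CPM in the same clusters, Aldh1a2 at 185, 204 and 208 CPM and Rbp4 at 62.5, 59.4 and 61.7 CPM. Lrat itself was among the leading genes of the last cluster. It was left out of the genes used for clustering, but the clusters were cut from these same cells. Cxcl14 and Col6a5, among the genes most like Lrat (r = 0.94 and 0.93), were among the genes leading these clusters. The differences between clusters are thus a description, and the share of all genes with such differences was not counted.

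**Figure D2:**
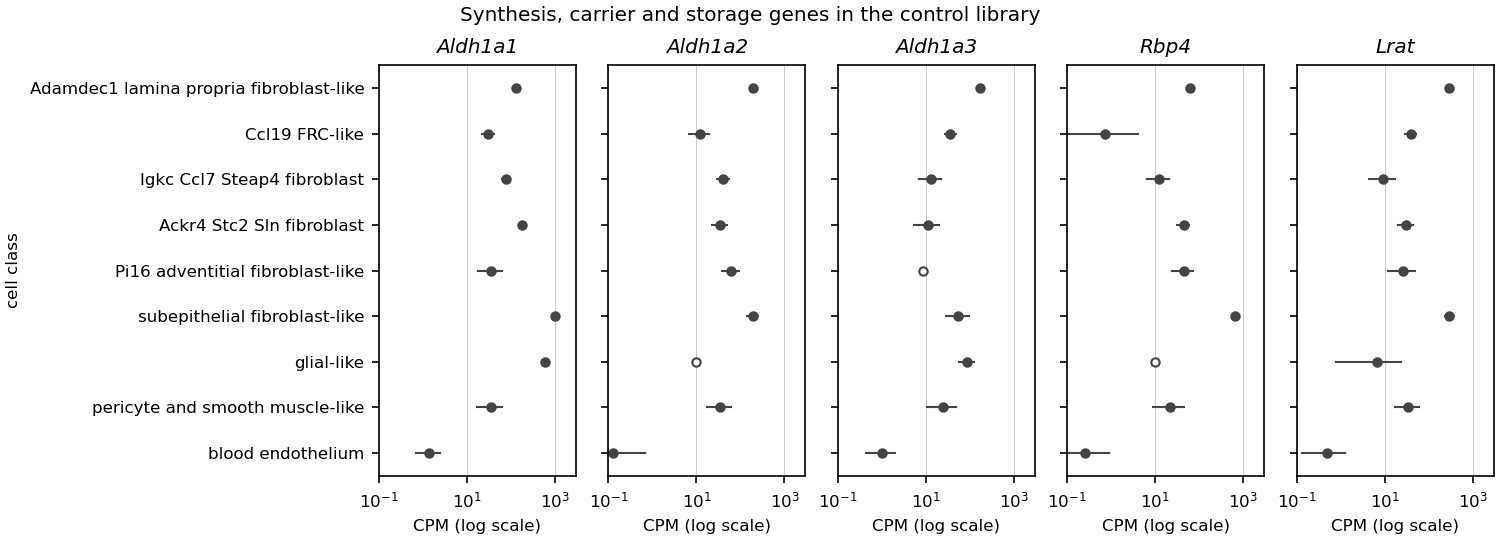
CPM (log scale) of the 5 stromal genes in fibroblast classes (1 not shown), glia-like, pericyte and smooth muscle-like cells and all blood endothelium of the control library. Points are the level and lines its exact Poisson 95% interval, open points mark the level of 3 UMIs where the count was 0, and blood endothelium lies at 0.125 to 1.37 CPM in each panel.

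The 5 stromal genes had few UMIs in blood endothelium of the control library. Aldh1a1 had 11 UMIs in 2468 cells (1.37 CPM), Aldh1a3 8 (0.997 CPM), Lrat 4 (0.498 CPM), Rbp4 2 (0.249 CPM) and Aldh1a2 1 (0.125 CPM). In the EC-iCOUPOE libraries Aldh1a2, Rbp4 and Lrat had no UMI in blood endothelium and Aldh1a1 had 1 UMI in each. Aldh1a3 had 0 UMIs in replicate 1 and 4 UMIs (1.64 CPM, 0.446 to 4.19) in replicate 2, within the counting interval of its control level (0.430 to 1.96 CPM). None of the 5 reached 50 UMIs there, so none entered the comparison between conditions. The fibroblast markers summed to 215 CPM in control blood endothelium and to 23.4 and 24.1 CPM in the EC-iCOUPOE libraries, and Dcn alone went from 32.8 CPM to 0.225 and 2.05 CPM. The part of free fibroblast RNA in the stromal UMIs of endothelium was not tested.

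Pericyte and smooth muscle-like cells were the stromal class with at least 20 cells in all 3 libraries. The 5 stromal genes stood there at 21.8 to 34.3 CPM in the control library, from 7 to 11 UMIs each in 108 cells. In the EC-iCOUPOE libraries, with 159 and 90 such cells, each had 0 to 2 UMIs. No gene of the 9 reached 50 UMIs in this class. The fibroblast markers in it summed to 2871 CPM in the control library and to 611 and 704 CPM in the others. The part of free fibroblast RNA in the mural levels was not tested.

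Stra6 (chr9:58063788-58153996), the retinol receptor, was counted in a few classes of endothelium. In the control library it stood at 216 CPM (185 to 251) in endothelium led by Colec12, Ltc4s and Ltb, at 185 CPM (137 to 244) in dividing EC-like cells and at 165 CPM (151 to 181) in HEC-like cells, and these neighbours did not differ beyond counting error. HEC-like cells lay 3.15-fold (2.37 to 4.26) above cells like postcapillary venules (PCV-like), at 52.6 CPM. Capillary EC-like, arterial EC-like and capillary resident progenitor-like (CRP-like) cells had 0 to 1 UMIs each. In capillary EC-like cells it had no UMI in any library, where 3 UMIs would have been 4.21 CPM in the control library. HEC are the vessels through which lymphocytes enter the organ. Stra6 overlaps the annotated gene Gm16131 on its own strand, so its level is uncertain where reads fall in both.

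Between conditions Stra6 went opposite ways in different classes. In HEC-like cells it stood at 165 CPM in the control library and 438 CPM (395 to 485) in EC-iCOUPOE replicate 1, a log2 ratio of 1.41 with a counting interval of 1.21 to 1.604. EC-iCOUPOE replicate 2 had 2 HEC-like cells and gave no value, so the higher level rests on 1 library. In the Colec12-led class it stood at 216, 327 and 187 CPM, with 1 EC-iCOUPOE library above and 1 below the control library. In PCV-like cells it stood at 52.6 CPM (53 UMIs), 10.1 CPM (22 UMIs) and 0 UMIs, where 3 UMIs would have been 11.6 CPM.

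In PCV-like cells Stra6 was thus 0.193 of the control level in replicate 1. Replicate 2 had no UMI there, and the level put in its place was 0.221 of the control level, which is no bound. The upper limit of the exact interval in replicate 2 was 14.3 CPM, against a level of 52.6 CPM in the control library. Stra6 was called lower, as were 1.67% of 5465 genes in that class. In dividing EC-like cells it stood at 185, 90.2 and 40.6 CPM and was also called lower, against 1.53% of 3193 genes, with 4 UMIs in replicate 2. The 5 high endothelial cell (HEC) markers summed to 254, 12.4 and 7.75 CPM in PCV-like cells and to 27065, 975 and 60.9 CPM in dividing EC-like cells, and control dividing EC-like cells had a median of 8763 UMIs. These markers moved with both values, and the part of HEC or of their free RNA in them was not tested. Over all blood endothelium Stra6 stood at 95.2, 102 and 8.999 CPM, and it was not called. The library with 8.999 CPM held 2 HEC-like and 27 Colec12-led cells, against 110 and 484 in the other EC-iCOUPOE library. With the 10 endothelial classes that had at least 20 cells in every library weighted alike, which leaves out HEC-like cells, the Stra6 means were 46.2, 44.1 and 23.3 CPM.

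Cyp26b1 (chr6:84571414-84593908), which breaks down retinoic acid, was counted in every blood endothelial class with at least 20 cells. In the control library it was highest in capillary EC-like cells, at 174 CPM (145 to 207). Classes led by Rgcc, by Cyp1a1 and by Scgb3a1, with CRP-like and arterial EC-like cells, followed at 169, 121, 121, 118 and 99.5 CPM, and no 2 neighbours in this order differed beyond counting error. PCV-like cells came next at 64.5 CPM. HEC-like cells had 4.83 CPM (2.64 to 8.10) from 14 UMIs in 389 cells, so HEC-like cells had Stra6 with little Cyp26b1, and capillary EC-like cells had Cyp26b1 with no Stra6 UMI. Fibroblast-like cells stood at 1.54 CPM and glia-like cells at 0 UMIs.

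Cyp26b1 was higher in EC-iCOUPOE endothelium. Over all blood endothelium it stood at 57.6 CPM (52.4 to 63.1) in the control library, 164 CPM (157 to 171) in replicate 1 and 285 CPM (264 to 307) in replicate 2. Both EC-iCOUPOE levels lay above the control interval, by log2 ratios of 1.51 (1.36 to 1.66) and 2.31 (2.14 to 2.48), a mean of 1.91 ± 0.57 (SD, n = 2 libraries). It was called higher, as was Cyp26a1, so 2 of the 3 genes with enough UMIs were called higher and none lower, against 4.72% of 10306 genes higher and 2.36% lower in blood endothelium. The share of cells with a Cyp26b1 UMI was 13.2%, 34.1% and 38.1%, and after thinning each cell to 1000 UMIs 7.29%, 15.3% and 22.4%, at median depths of 2150.5, 3166 and 2282 UMIs. In fibroblast-like cells of the control library, with a median of 2754.5 UMIs, it was 0.445% and after thinning 0.0404%. The mix of classes differed between libraries, and with the 10 classes weighted alike the means were 94.9, 162 and 244 CPM and the mean log2 ratio was 1.07, with 9 of the 10 classes higher in both EC-iCOUPOE libraries. On that weighting replicate 1 was 1.71-fold and replicate 2 was 2.57-fold above the control library, so the call of higher was lost.

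**Figure D3:**
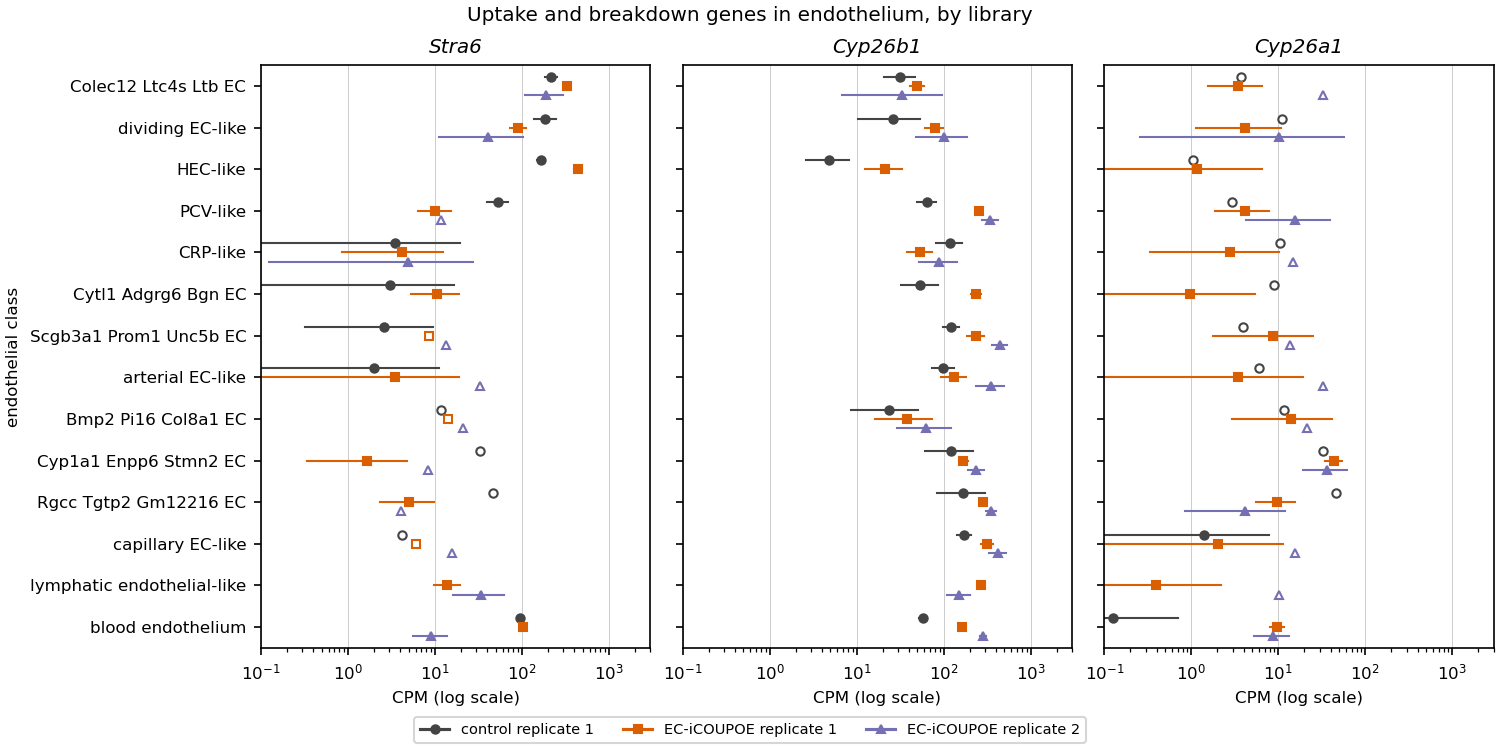
CPM (log scale) of Stra6, Cyp26b1 and Cyp26a1 in each endothelial class, by library. Points are the level of 1 library and lines its exact Poisson 95% interval, open points mark the level of 3 UMIs where the count was 0, and in PCV-like cells Cyp26b1 stands at 64.5, 257 and 345 CPM.

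Within classes the largest mean log2 ratio of Cyp26b1 with both EC-iCOUPOE libraries was in PCV-like cells, at 2.21, although in cells with at least 2000 UMIs the Rgcc-led class reached 2.36 against 2.22. In PCV-like cells it stood at 64.5 CPM (65 UMIs), 257 CPM (558 UMIs) and 345 CPM (89 UMIs), 3.99-fold and 5.35-fold above the control library, and was called higher, as were 3.39% of genes in that class. The Cytl1-led class, whose score on the PCV marker list was 0.698 against the 0.70 needed for the name, went from 54.2 to 238 CPM in replicate 1 (4.39-fold) and had 13 cells in replicate 2. Both EC-iCOUPOE levels in PCV-like cells lay above the control interval (49.8 to 82.2 CPM), which covers only the counting error of 1 library. The 6 lymphatic endothelial markers summed to 18.8, 67.7 and 81.4 CPM in PCV-like cells. Lymphatic endothelial-like cells, with marker sums of 10034 and 7769 CPM, had 267 and 152 CPM of Cyp26b1 in the EC-iCOUPOE libraries, below the PCV-like level in replicate 2 and not different from it beyond counting error in replicate 1.

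In dividing EC-like cells Cyp26b1 stood at 25.9, 78.7 and 101 CPM and was called higher, against 8.46% of genes in that class. The sum of the high endothelial cell (HEC) markers in this class went the other way, at 27065, 975 and 60.9 CPM. HEC-like cells of the control library had 4.83 CPM of Cyp26b1, and the part of HEC in the dividing EC-like values was not tested. In capillary EC-like cells it stood at 174, 319 and 422 CPM, 1.84-fold and 2.43-fold higher, and in the Scgb3a1-led class at 121, 236 and 442 CPM, 1.95-fold and 3.65-fold higher. Both EC-iCOUPOE libraries were above the control interval in these 2 classes, but 1 library lay under 2-fold, so they were not called. In the Rgcc-led class the values were 169, 287 and 353 CPM, with 11 UMIs in 36 control cells and a mean log2 ratio of 0.92 that ranged from 0.51 to 2.36 over the alternatives, and in the Cyp1a1-led class 121, 169 and 239 CPM, with 11 UMIs in 58 control cells. In arterial EC-like cells they were 99.5, 131 and 348 CPM, and replicate 1 did not differ from the control library beyond counting error (log2 ratio 0.40, interval -0.25 to 1.03).

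CRP-like cells went the other way. Cyp26b1 stood there at 118 CPM (34 UMIs), 53.1 CPM (38 UMIs) and 89.2 CPM (18 UMIs), log2 ratios of -1.15 (-1.86 to -0.44) and -0.40 (-1.32 to 0.46). The second interval spans 0, and with under 50 UMIs in each library the class was outside the rule. In the Colec12-led class the levels were 31.9, 49.8 and 33.1 CPM, with 3 UMIs in replicate 2, and no difference was detectable there for that library. HEC-like cells went from 4.83 to 21.1 CPM in replicate 1, on 14 and 18 UMIs.

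**Figure D4:**
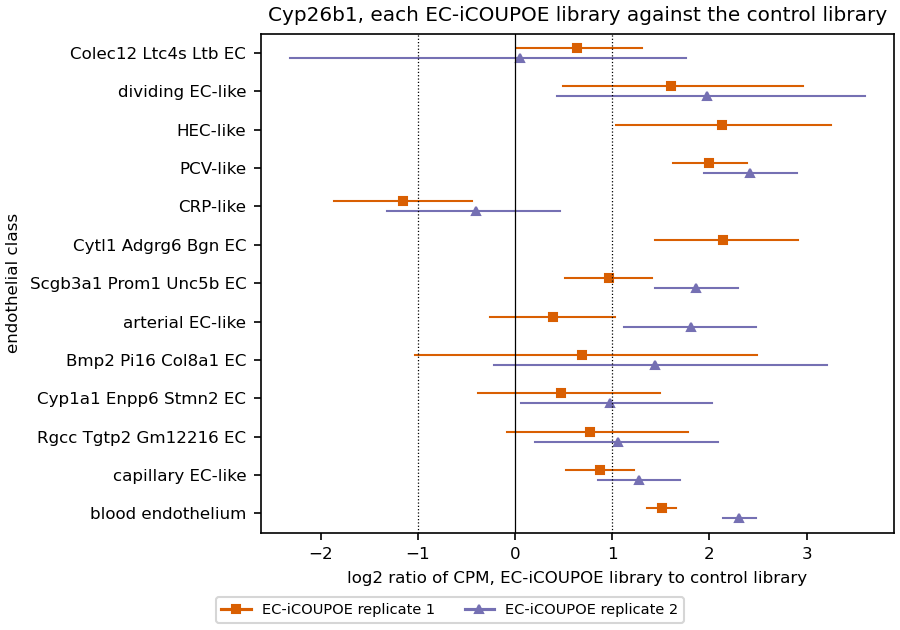
Log2 ratio of Cyp26b1 CPM of each EC-iCOUPOE library to the control library in each blood endothelial class with its exact counting interval (lines), and dotted lines at 2-fold. PCV-like cells lie at 2.00 and 2.42, all of blood endothelium at 1.51 and 2.31, and CRP-like cells below 0 in both libraries.

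Cyp26a1 (chr19:37697798-37701536), the other retinoic acid hydroxylase, was counted almost wholly in EC-iCOUPOE endothelium. It had 1 UMI in 2468 control blood endothelial cells, 130 UMIs in 3527 cells of replicate 1 and 21 UMIs in 996 cells of replicate 2, which is 0.125, 9.73 and 8.59 CPM. The log2 ratios were 6.29 and 6.11, and their counting intervals of 3.78 to 11.60 and 3.47 to 11.48 show how little a single control UMI fixes the size. Glia-like, fibroblast-like and mural cells had 0 UMIs, and lymphatic endothelial-like cells had 1 UMI. The upper limits of the exact intervals were 0.515 CPM in fibroblast-like and 12.3 CPM in glia-like cells of the control library. In mural cells of the 3 libraries they were 11.5, 5.62 and 13.1 CPM. Those of glia-like cells, and of mural cells in the control library and replicate 2, lay above both EC-iCOUPOE endothelial levels. These zeros thus do not exclude such levels. Of the 3 genes compared in blood endothelium, Cyp26a1 had the largest ratio and the fewest UMIs.

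Most Cyp26a1 UMIs of the EC-iCOUPOE libraries were in the class led by Cyp1a1, Enpp6 and Stmn2, with 79 of 130 UMIs and 13 of 21. The levels there were 43.2 CPM (34.2 to 53.9) and 36.1 CPM (19.2 to 61.7), and the class lay 3.05-fold (1.01 to 15.1) above the next class in replicate 1 and 2.33-fold (0.719 to 9.80) in replicate 2. The gene was left out of the genes used for clustering. The control library had 58 cells of the class, with 0 UMIs, where 3 UMIs would have been 33.1 CPM and the upper limit of the exact interval is 40.7 CPM. The EC-iCOUPOE levels were 1.31-fold and 1.09-fold that 3-UMI level, which is no bound, and the level of replicate 2 lay below that upper limit. The class made up 58 of 2468, 550 of 3527 and 144 of 996 blood endothelial cells. In PCV-like cells Cyp26a1 had 0 UMIs in the control library, where 3 UMIs would have been 2.98 CPM and the upper limit is 3.66 CPM. The EC-iCOUPOE libraries had 4.15 and 15.5 CPM, 1.39-fold and 5.21-fold that 3-UMI level, on 9 and 4 UMIs. The interval of replicate 1 (1.90 to 7.87 CPM) includes the control upper limit, and that of replicate 2 (4.22 to 39.7 CPM) lies above it.

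Of 35 other genes of the pathway, 20 had enough UMIs in blood endothelium, of which 1 was called higher and 2 lower, against background shares of 4.72% and 2.36%, with a median mean log2 ratio of 0.04 against 0.08 for all genes. Rarb, a retinoic acid receptor and itself a known retinoic acid target, was higher at 1.99, 6.96 and 9.41 CPM, from 16, 93 and 23 UMIs. Lymphatic endothelial-like cells had 122 and 77.8 CPM of Rarb, and lymphatic endothelial markers in blood endothelium summed to 30.8, 130 and 85.1 CPM, so these moved with it and their part was not tested. Rdh10, which oxidises retinol to retinal, was lower at 40.4, 17.6 and 4.09 CPM. It stood at 76.2 and 91.4 CPM in HEC-like cells of the control library and replicate 1, with a log2 ratio of 0.26 (-0.13 to 0.64), while HEC-like cells numbered 389, 110 and 2. Adh1, an alcohol dehydrogenase that oxidises retinol, was lower at 6.48, 1.65 and 2.05 CPM, and stood at 85.3 CPM in fibroblast-like cells, whose markers in blood endothelium went from 215 to 23.4 and 24.1 CPM. The part of these cells in the Rdh10 and Adh1 values was not tested.

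Other pathway genes that were measured well did not pass the rule in blood endothelium. Tgm2, a textbook retinoic acid target, stood at 152, 285 and 416 CPM, with replicate 1 just under 2-fold. In the Rgcc-led class Tgm2 stood at 107 CPM (7 UMIs), 285 and 468 CPM and in the Cyp1a1-led class at 166 CPM (15 UMIs), 407 and 608 CPM, and it was called higher in both. Of the pathway genes with enough UMIs, 2 of 12 were called higher in the Rgcc-led class, Tgm2 and Rbp7, against 9.15% of all genes. In the Cyp1a1-led class 2 of 11 were, Tgm2 and Dhrs4, against 9.58%, with none lower in either class. These were the classes with the most pathway genes called higher. Rbp7 was also called higher in dividing EC-like cells but lower in the Scgb3a1-led class. In PCV-like cells 0 of 10 pathway genes were called higher and 0 lower. Dhrs3, which returns retinal to retinol, stood at 45.2, 56.3 and 83.9 CPM, and Rarg, a receptor, at 34.9, 45.6 and 66.7 CPM.

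In the control stroma the retinol-oxidising genes followed the members in part. Rdh10 was highest in subepithelial fibroblast-like cells at 273 CPM and next in Adamdec1 lamina propria fibroblast-like cells at 159 CPM, the classes with the most Lrat. Adh1 stood at 137 CPM in the Ackr4-led class. Dhrs3 was at 359 CPM in glia-like cells, and at 352 and 473 CPM in the lymphatic endothelial-like cells of the EC-iCOUPOE libraries.

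The genes whose log2(CPM + 10) over the 49 class sums (class by library, which share libraries and depth) was most like that of each member are given as a description. Rbp4 was most like Tmem119 (r = 0.97) and Aldh1a1 most like F3 (r = 0.95), of which F3 is on the marker list of the subepithelial class. Aldh1a2 was most like Podn (r = 0.96), Aldh1a3 most like Frzb (r = 0.88) and Lrat most like Srpx2 (r = 0.95). Stra6 was most like Nxph1 (r = 0.91), and Cyp26b1 most like the endothelial genes Emcn (r = 0.87), Tie1 and Kdr. The closest gene to Cyp26a1, Krt19, reached r = 0.66. Crabp1 had too few UMIs for this.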

How the data were processed

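Single cells of Peyer's patch endothelium were measured in 1 control and 2 EC-iCOUPOE libraries. The authors counted UMIs per gene and barcode with Cell Ranger (3.0.2 and mm10 in the submitters' processing notes, with 3.1.0 in the header of EC-iCOUPOE replicate 1) and deposited these raw counts, without normalization. Barcodes under 500 genes or 1000 UMIs, or over 10% mitochondrial UMIs, were removed. Scrublet in scanpy 1.11.5 marked 2.52%, 0.126% and 0.483% of cells as doublets, with an expected rate set at 6%. The true rate was not measured. Calls were few in the EC-iCOUPOE libraries, and doublets may remain there. The control library and EC-iCOUPOE replicate 2 shared 12 barcodes, and the other pairs shared 0. Libraries were integrated by reciprocal PCA in Seurat 5.3.0 (R 4.3.3; 2000 variable genes, 30 components, Louvain resolution 1), without the 9 genes, the 35 other pathway genes and Nr2f2. Clusters were named by marker lists at a score of at least 0.7, a threshold set after seeing the data, which left the Cytl1-led class (0.698) unnamed. These members and lists were chosen with earlier results of these data known.

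UMIs were summed per class and library (classes of at least 20 cells) in Python 3.11.15 (scipy 1.17.1, pandas 2.3.3, numpy 2.4.6). Intervals of CPM are exact Poisson and those of ratios exact and conditional on both counts, at 95%. A count of 0 was replaced by 3 UMIs in ratios. Alternatives were other clusterings and depths, doublets kept, the top 6% of doublet scores left out, TMM factors (edgeR 4.0.16), DESeq2 1.42.0 size factors and leaving out each library. The doublet-score setting, classes weighted alike and the class rule on the control library alone or on compartments were chosen after seeing the data. All 9 genes and the pathway genes with at least 50 UMIs in a class were open to naming, with the 3 genes most like each member. Results of 1 fibroblast class and 1 pathway gene are not reported here.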

Additional observations from a re-analysis of the deposited data

Results flagged for a closer look

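Cyp26b1 lay below the control library in both EC-iCOUPOE libraries in CRP-like cells, with a mean log2 ratio of -0.78, and above it in both in the 9 other classes with at least 20 cells in every library. There the mean log2 ratios were 2.21 in PCV-like cells, 1.41 in the Scgb3a1-led class, 1.10 in arterial EC-like cells, 1.08 in capillary EC-like cells, 0.92 in the Rgcc-led class, 0.72 in the Cyp1a1-led class and 0.35 in the Colec12-led class, with 1.79 in dividing EC-like cells and 1.06 in the Bmp2-led class. In the Colec12-led class the log2 ratio of replicate 2 was 0.05. In arterial EC-like cells the mean was -0.80 with each library clustered alone. Replicate 1 in arterial EC-like cells and replicate 2 in CRP-like cells did not differ from the control library beyond counting error. The difference between classes was not tested.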

How the results depend on the processing

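With 1 control library, its own spread is unknown, and no alternative can supply it. No paired analysis was possible because the groups share only replicate number 1 and there is 1 control library. Of 115 ratios under alternatives that kept both EC-iCOUPOE libraries, 96 stayed within 1 SD of the 2 libraries and 19 moved. Of 60 levels of the control library, 58 stayed within the counting interval, and of 38 counts of genes, 26 stayed within 1.5 times. No called ratio changed sign. Cyp26a1 had 1 UMI in control blood endothelium, and a count of 0 enters ratios as 3 UMIs. A setting that drops that UMI therefore lowers the ratio by this alone, and the part of this in the Cyp26a1 ratios was not tested. The mean log2 ratio of Cyp26a1 in blood endothelium, 6.197, was 4.32 in cells with at least 2000 UMIs and 5.82 with classes weighted alike. It ranged from 6.11 to 6.29 when leaving out an EC-iCOUPOE library. The mean log2 ratio of Cyp26b1, 1.91, was 1.07 with classes weighted alike, where replicate 1 fell to 1.71-fold and the call was lost. It ranged from 1.51 to 2.31 when leaving out a library. The mean log2 ratio of Stra6 ranged from -3.40 (without replicate 1) to 0.10 (without replicate 2). The 486 genes called higher became 523 without EC-iCOUPOE replicate 1, 996 without replicate 2, 902 with at least 10 UMIs and 1102 with at least 1 UMI. The 243 called lower became 590, 454, 411 and 433 in the same order. The causes were not tested, beyond the fewer libraries or lower minimum that each setting holds. Among the 9 genes, 1 (Cyp26a1) was held by a class in cells with at least 2000 UMIs, against 0, by the rule that needs at least 2 libraries. That rule counts only libraries with at least 20 cells of the class, so it can be met without the control library. In the control library 1 (Rbp4), against 2, was held at Louvain resolution 0.6, at 2000 UMIs, with the top 6% of doublet scores left out and at 4-fold, and 3 with each library clustered alone. Cyp26b1 in arterial EC-like cells had a mean log2 ratio of -0.80 with each library clustered alone, against 1.10. In the Rgcc-led class it was 2.36 in cells with at least 2000 UMIs and 0.51 with doublets kept, against 0.92. In CRP-like cells it ranged from -1.15 to -0.17.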
